A study of Mus musculus with 13 samples.

Results

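The Adam, Adamts and Adamtsl genes were taken as all 58 genes of the mouse gene table whose symbol begins with Adam, Adamts or Adamtsl and a number, out of 21900 protein-coding genes. They comprise 34 Adam, 19 Adamts and 5 Adamtsl genes, and 34 of the 58 (58.6%) had at least 1 peak of the glucocorticoid receptor (GR) under dexamethasone and lipopolysaccharide, against 34.4% of all protein-coding genes. GR, a hormone-activated transcription factor, was mapped by chromatin immunoprecipitation and sequencing in mouse embryonic fibroblasts, with the same antibody in all 13 libraries. The fibroblasts were grown from male C57BL/6 embryos at day 13.5 and cultured for 7 days. In 1 treatment, cells received the synthetic glucocorticoid dexamethasone (Dex) at 1 µM for 16 h and lipopolysaccharide (LPS), a bacterial inflammatory stimulus, for 3 h at a concentration labelled 100 ng/µl. Of its libraries, 3 were from GR wt/wt cells. Another 4 libraries under Dex+LPS were from GR Zn/Zn cells, named C437G in the file names, homozygous for a mutant GR, and 2 were from GRKO/KO cells. Under Dex alone (1 µM for 16 h) there were 2 GR wt/wt and 2 GR Zn/Zn libraries.

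ADAM proteins are membrane-anchored metalloproteases that cut the outer parts of other membrane proteins free, among them growth factors, cytokines and Notch receptors. ADAMTS proteins are secreted proteases with thrombospondin repeats that cut matrix proteins such as proteoglycans and procollagens. ADAMTSL proteins resemble them but lack the protease domain and associate with the microfibrils of the matrix. In fibroblasts the families act in the turnover of the matrix and in the release of signals from the cell surface, and many further Adam genes are known mainly from testis and epididymis.

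The deposited data were peak lists. The Dex+LPS libraries had been merged by genotype and divided into 18953 peaks specific to wild type, 3533 shared and 2187 specific to the mutant, with peaks of the knockout cells removed. A merged list has no spread between libraries, so no difference between genotypes under Dex+LPS could be tested across samples. The depth behind each list is unknown, and a missing peak is therefore a peak not called, not a site shown to be unbound. A peak was counted at the gene named by the authors' annotation, whatever its distance, and a gene with at least 1 peak is called bound. Peak coordinates are in mm10, and gene spans are from RefSeq on the same assembly (GRCm38.p6). Peak positions give no expression and so do not check the cell type directly. Of 12 fibroblast marker genes, all 12 had a Dex+LPS peak, against 2 of 6 macrophage, 4 of 4 endothelial, 3 of 4 epithelial and 0 of 4 muscle markers. The share over all protein-coding genes was 34.4%. The 2 macrophage genes had mutant-specific peaks alone.

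Of the 128 Dex+LPS peaks at the 58 genes, 1 overlapped a gene start, at Adamts1 (0.781%, against 2.37% of peaks at other genes). The RefSeq promoter table held 32 of the 58 genes. The 250 bases before the start are shown for Adamts1 and Adamtsl4, because each had a Dex+LPS peak at or close to this window. The Adamts1 promoter (chr16:85803114-85803363, minus strand) has in capitals the 144 bases under the wild-type-specific peak. The Adamtsl4 promoter (chr3:95687918-95688167, minus strand) has in capitals its 2 overlapping matches to the core of the NF-kB motif (GGG, any 5 bases, CC), and its shared peak begins just upstream. Sequences are from RefSeq, build GRCm38.p6, written 5′ to 3′.
Adamts1: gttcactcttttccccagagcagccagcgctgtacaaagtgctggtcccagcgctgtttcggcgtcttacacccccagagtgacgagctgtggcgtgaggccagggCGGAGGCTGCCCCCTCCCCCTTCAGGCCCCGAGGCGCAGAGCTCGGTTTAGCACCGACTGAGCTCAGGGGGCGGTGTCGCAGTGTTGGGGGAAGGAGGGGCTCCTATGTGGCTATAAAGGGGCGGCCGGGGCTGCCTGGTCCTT
Adamtsl4: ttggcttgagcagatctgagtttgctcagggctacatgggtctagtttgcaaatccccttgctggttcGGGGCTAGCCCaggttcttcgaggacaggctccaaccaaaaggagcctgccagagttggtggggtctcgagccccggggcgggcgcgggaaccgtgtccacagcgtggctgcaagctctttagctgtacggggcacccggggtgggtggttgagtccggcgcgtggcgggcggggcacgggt

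Both strands were searched for 4 motifs in the 250 bases before each start in the table, and a gene was counted if any of its starts had a match. The GR response element was written as AGAACA, any 3 bases and TGTTC, and AGAACA was also searched alone. The NF-kB core was written as GGG, any 5 bases and CC, and the AP-1 site as TGANTCA. Neither of the promoters shown held the GR element, AGAACA or the AP-1 site. Of the 32 genes, 0 had the full GR element, against 0.0333% of all 27025 genes with a promoter. AGAACA was in 4 of the 32 (12.5%), against 18.2% of all, and the AP-1 site also in 4 (12.5%), against 7.82%. The NF-kB core was in 21 (65.6%), against 48.7%. The promoters of Adamts1 and Adamtsl4 were rich in G and C (65.6% and 64.4%), the letters that the NF-kB core fixes, and the part of base composition in these shares was not tested. Adamts1 had 1 match to the core, not marked above. AGAACA is part of the full element, and a match is a run of letters and not a measured site.

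Under Dex+LPS more of the metalloprotease genes had wild-type than mutant peaks, as was also so over all protein-coding genes. Of the 58 genes, 28 (48.3%) carried at least 1 wild-type-specific peak. Shared peaks were found at 14 (24.1%) and mutant-specific ones at 3 (5.17%). The same shares over all protein-coding genes were 30.6%, 9.37% and 5.36%. A wild-type peak of either kind was found at 34 genes (58.6%; 33% of all) and a mutant peak at 15 (25.9%; 12.6% of all). Wild-type peaks alone were at 19 of the 58 genes, against 21.8% of all protein-coding genes. Mutant peaks alone were at 0, which is near the 1.39% of all protein-coding genes. The median was 1 peak per gene over the 58 and 0 over all protein-coding genes.

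Counted by peaks, 107 at the 58 genes were wild-type-specific, 18 shared and 3 mutant-specific. Wild-type cells thus had 125 peaks there, merged from 3 libraries, and mutant cells 21, merged from 4. The ratio was 5.95, against 3.96 over the other protein-coding genes. It was 4.25 for genes under 20 kb, 4.33 from 20 to 100 kb and 8.62 at 100 kb or more. The other protein-coding genes had 2.84, 4.07 and 5.16 in that order. The ratios by length rest on 4, 9 and 8 mutant peaks at the 58 genes. Of the 125 wild-type peaks, 14.4% were shared (exact 95% interval 8.76 to 21.8%), close to 15.6% elsewhere. In the mutant, 85.7% of the 21 peaks coincided with a wild-type peak (63.7 to 97.0%), against 61.8% of the 4833 mutant peaks at other protein-coding genes. Intervals cover counting error only, and peaks of the same gene are not independent.

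**Figure D1:**
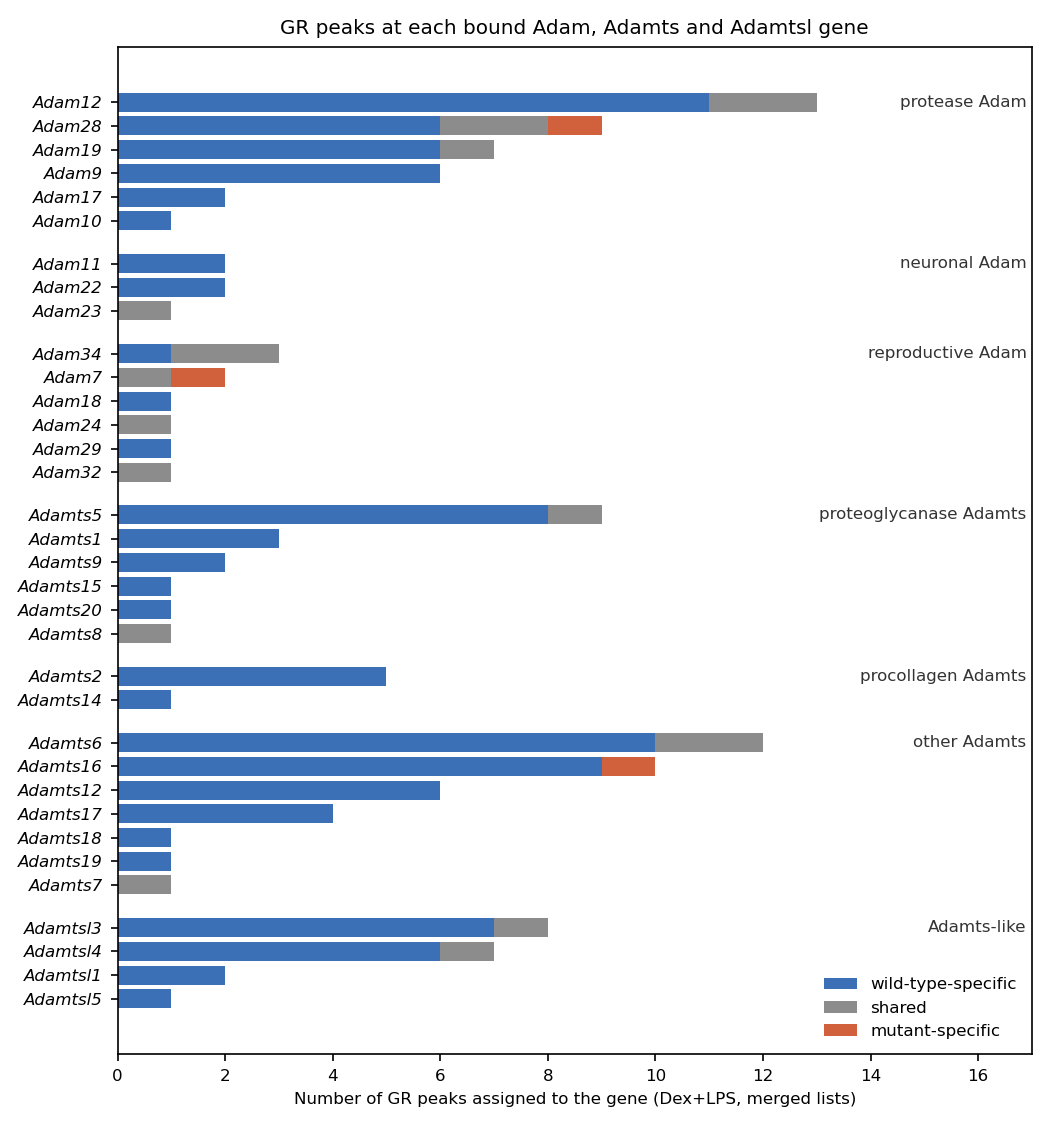
Bars give the number of Dex+LPS peaks assigned to each of the 34 bound genes, grouped by role and coloured by class of peak. Adam12 leads with 13 peaks, and mutant-specific peaks appear at Adam28, Adam7 and Adamts16 alone, with 1 each.

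By family, 15 of 34 Adam genes (44.1%), 15 of 19 Adamts genes (78.9%) and 4 of 5 Adamtsl genes (80.0%) had a peak, with median lengths of 17.6, 114 and 29.6 kb. Peaks numbered 4 or more at 12 of the 58 genes, against 7.85% of protein-coding genes, and 10 or more at 3, against 1.34%.

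Among the 9 Adam genes that encode active membrane proteases in somatic tissues, 6 were bound, and of their 38 peaks 32 were wild-type-specific, 5 shared and 1 mutant-specific. Inside these genes lay 3.36 peaks per 100 kb, against 1.37 inside all 58 genes and 1.07 inside the other protein-coding genes. All roles were assigned after the counts were seen. The others ranged from 0.327 for the reproductive tract Adam genes to 1.86 for the other Adamts genes. The neuronal Adam, Adamtsl, proteoglycan-cutting and procollagen groups had 0.645, 0.723, 0.9 and 1.02. Peaks inside were counted by the authors' gene annotation and divided by RefSeq lengths. The Adamtsl value is lowered by this, because it holds the 915 kb of Adamtsl1 but not the 2 peaks inside that RefSeq span. Of the 25 peaks inside the 9 genes, Adam12 held 10, and Adam19 and Adam9 held 6 each. The density was 2.38 inside matrix metalloproteinase genes and 1.8 inside collagen genes. Among related genes counted below, it was 5.94 for inhibitors and 1.32 for partners and activators. For genes of shed proteins it was 5.77, and for matrix substrates and partners 4.14. Adam12, the gene of meltrin alpha, a protease of muscle and fat precursor cells, spans 342 kb (chr7:133883199-134225097). It had 11 wild-type-specific and 2 shared peaks, the most of the 58 genes. Its start was flanked by wild-type-specific peaks at 263 bp inside (chr7:134224734-134224933) and 181 bp upstream (chr7:134225178-134225377). A shared peak lay 6499 bp upstream and the other inside the gene, 110513 bp from the start. That inner shared peak belonged to a run of 5 peaks over 13.3 kb, and the nearest wild-type-specific peak was 1032 bp from it.

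Adam19, the gene of meltrin beta, which has a role in heart development, had 6 wild-type-specific peaks and 1 shared peak. Of the 7, 6 lay inside the gene, and 5 formed a run of 16.4 kb (chr11:46073206-46089603). The shared peak was the first of this run, 18804 bp from the start. Adam9, the gene of meltrin gamma, had 6 peaks, all wild-type-specific and inside the gene. The closest to the start was 208 bp inside (chr8:25016614-25016813), and 4 of the 6 lay within 7.1 kb. The nearest mutant peak was 53624 bp from the peak at the start.

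Adam17 and Adam10, the widely expressed sheddases of tumour necrosis factor and of Notch, had few peaks. Adam17 had 2 wild-type-specific peaks, both inside the gene, 699 bp apart and 36888 and 37586 bp from the start. Adam10 had 1 wild-type-specific peak, 82634 bp inside. Neither gene had a mutant peak. No peak was assigned to Adam8, Adam15 or Adam33.

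Adam28, a protease gene known from lymphocytes and epididymis, had 9 peaks, of which 6 were wild-type-specific, 2 shared and 1 mutant-specific, and none lay in the gene. The 9 peaks were 63082 to 185544 bp upstream. A run of 4 peaks over 3.43 kb (chr14:68749395-68752826) held both shared peaks, 1 wild-type-specific peak and the mutant-specific peak. The mutant-specific peak (chr14:68752627-68752826) was 923 bp from the nearest shared peak. By the nearest gene start these peaks also fall to Adam28.

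The 3 Adam genes of neuronal adhesion proteins without protease activity were each bound. Adam11 and Adam22 had 2 wild-type-specific peaks each, upstream of the gene and inside it respectively. Adam23 had 1 shared peak, 108881 bp inside.

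Of the 22 Adam genes known mainly from testis or epididymis, 6 had a peak (27.3%). The share was 34.4% over all protein-coding genes and 21.4% over other protein-coding genes under 20 kb. The 9 peaks lay mostly outside the genes (22.2% inside). They numbered 3 wild-type-specific, 5 shared and 1 mutant-specific. Adam34 had 2 shared peaks and 1 wild-type-specific peak, 394089 to 617955 bp upstream, for which the nearest start belonged to other genes. Adam7, an epididymal gene, had 1 shared and 1 mutant-specific peak (chr14:68474642-68474841), 62777 and 58947 bp from its start on the downstream side and 3830 bp from each other. Both lay in the body of Gm31227. Adam24 had 1 shared peak 13627 bp upstream, and Adam29 had 1 wild-type-specific peak 342738 bp from its start. Inside a gene lay only the wild-type-specific peak of Adam18, at 1649 bp, and the shared peak of Adam32, at 52908 bp. Adam18, Adam3, Adam5, Adam32 and Adam9 follow each other in this order on chromosome 8, and of these Adam9 had 6 peaks, Adam18 and Adam32 had 1 each, and Adam3 and Adam5 had 0. The remaining genes of the group with no peak were Adam1a, Adam1b, Adam2, Adam4, Adam6a, Adam6b, Adam20, Adam21, Adam25, Adam26a, Adam26b, Adam30, Adam34l and Adam39. The median length of the 22 genes was 8.35 kb.

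Among the 7 Adamts genes of the proteoglycan-cutting branch, 6 were bound, with 15 wild-type-specific, 2 shared and no mutant-specific peak. Adamts1, a protease of aggrecan and versican, had 3 peaks, each wild-type-specific. The first (chr16:85803058-85803257) overlapped its start, and the others lay downstream of the gene, 9629 and 46829 bp from the start. No mutant peak was called within 24070 bp of the peak at the start. Adamts5, a major aggrecanase of cartilage, lies beside Adamts1 on chromosome 16 and had 8 wild-type-specific peaks and 1 shared peak. Of these, 1 was inside, 2451 bp from the start, and the others stretched upstream from 49367 to 402851 bp. The shared peak (chr16:86159469-86159668) was 258443 bp upstream. By the nearest gene start, the 8 upstream peaks also fall to Adamts5, and the peak inside the gene falls to Gm46558. Adamts9 had 2 wild-type-specific peaks, Adamts15 and Adamts20 had 1 each, and Adamts8 had 1 shared peak. Adamts4, the other well-known aggrecanase, had none.

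The 3 genes of procollagen N-proteinases, which trim fibrillar procollagens, had only wild-type-specific peaks. Adamts2 had 5, all inside the gene, 51893 to 124211 bp from the start. Adamts14 had 1 at 4760 bp upstream, and Adamts3, although 210 kb long, had none.

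The other 9 Adamts genes held 35 peaks, 31 of them wild-type-specific, 3 shared and 1 mutant-specific. Adamts6, which acts in heart development, had 10 wild-type-specific and 2 shared peaks. Close to the authors' gene start lay wild-type-specific peaks at 859 bp upstream (chr13:104286877-104287076) and 469 bp inside (chr13:104288204-104288403). RefSeq places the start farther upstream, and by that start they were 458 and 1785 bp inside. The shared peaks were 172635 and 233967 bp from the start. The second belonged to a run of 3 peaks over 3.56 kb, downstream of the gene. Adamts16 had 9 wild-type-specific peaks, no shared peak and 1 mutant-specific peak (chr13:70746403-70746602), inside the gene and 95308 bp from the start. The nearest wild-type peak was 12331 bp away, so this was the mutant-specific peak with the most separate position of the 3. Adamts12, which cuts cartilage oligomeric matrix protein, had 6 wild-type-specific peaks and Adamts17 had 4, all inside the genes. Adamts7, a relative of Adamts12, had 1 shared peak near its end. Adamts18 and Adamts19 had 1 wild-type-specific peak each, and Adamts10 and Adamts13 had none.

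Of the 5 Adamtsl genes, 4 were bound, with 16 wild-type-specific and 2 shared peaks. Adamtsl4, whose product binds fibrillin microfibrils and is needed for the suspension of the eye lens, is 11.7 kb long and had 6 wild-type-specific peaks and 1 shared peak. The shared peak (chr3:95688211-95688410) was 393 bp upstream of the start, the only mutant peak within 1 kb of any start here. A further 5 wild-type-specific peaks lay 1853 to 19815 bp upstream. Adamtsl3 had 7 wild-type-specific peaks and 1 shared peak, all 8 inside its 279 kb. Adamtsl1 had 2 wild-type-specific peaks, upstream by the authors' gene start but inside the longer RefSeq span. Adamtsl5 had 1 and Adamtsl2 none.

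**Figure D2:**
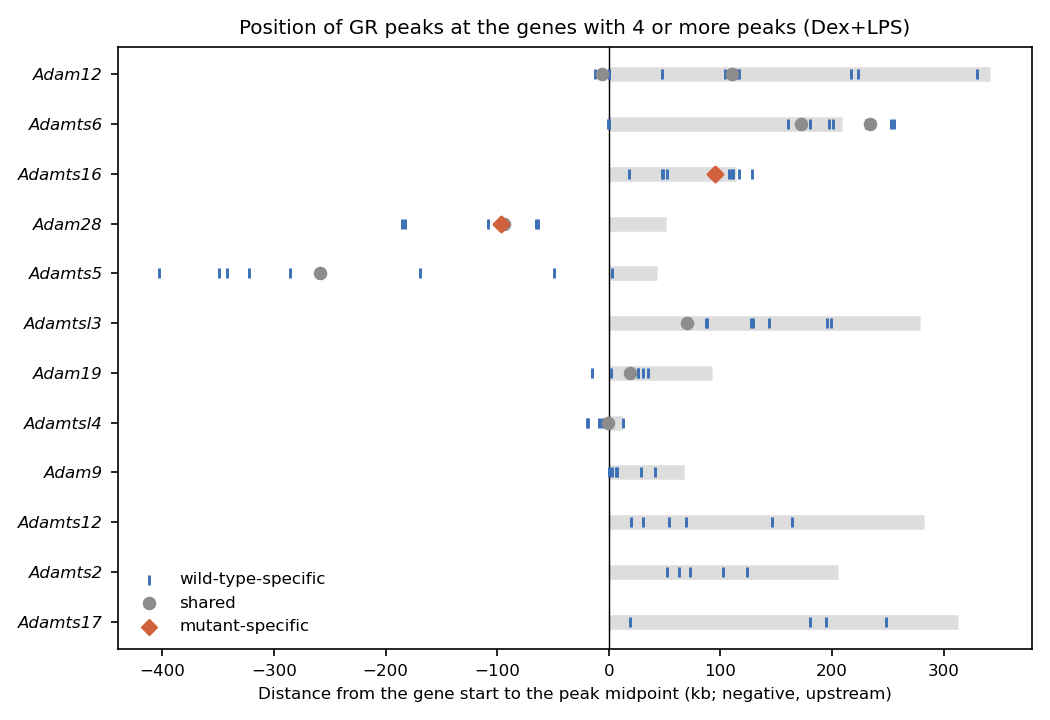
Each row is a gene with 4 or more peaks, the grey bar is its body by the authors' annotation, and each mark is a peak at its distance in kb from the gene start, by class. All 9 peaks of Adam28 and 8 of the 9 of Adamts5 lie upstream, as far as 402851 bp for Adamts5, while those of Adam9, Adamts2, Adamts12, Adamts17 and Adamtsl3 lie inside the gene.

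Peaks at these genes lay farther from gene starts than elsewhere. The median distance was 71.3 kb, against 39.6 kb for peaks at all other genes, and 7 of 128 (5.47%) were within 1 kb of a start, against 10.6%. Those 7 belonged to Adam9, Adam12, Adamts1, Adamts6 and Adamtsl4. Inside a gene lay 57.0% of the peaks, against 46.9% of the peaks at all other genes, noncoding ones included. With peaks that overlap the start or end of the gene it was 57.8%, against 53.0% at other protein-coding genes. Beyond 100 kb were 54 (42.2%), against 29.4%. The other genes were not matched for gene length, and the part of length in these distances was not tested. Chromosomes 10 to 14 held 39.8% of these peaks, against 32.4% of the peaks at other genes, and all 3 mutant-specific ones.

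These genes are longer than most, and the longer ones had more peaks. Their median length was 36.8 kb, against 17.1 kb for other protein-coding genes. Across the 58 genes, Spearman's rho of length and peak number was 0.587 and Pearson's r with log10 length 0.454. For the 36 genes left without the reproductive tract Adam genes they were 0.431 and 0.34. Over all 21900 protein-coding genes, rho was 0.386 and r 0.322. The genes share the same merged lists, so these are descriptions. Among genes under 20 kb, 6 of 22 had a peak (27.3%, interval 10.7 to 50.2%), against 21.4% of other protein-coding genes of that length. From 20 to 100 kb it was 12 of 19 (63.2%, 38.4 to 83.7%) against 42.3%, and at 100 kb or more 16 of 17 (94.1%, 71.3 to 99.9%) against 72.2%. All 3 intervals hold the value of the other genes of that length. The shares with a mutant peak in the same order were 13.6%, 31.6% and 35.3%, against 7.84%, 13.9% and 31.5%.

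**Figure D3:**
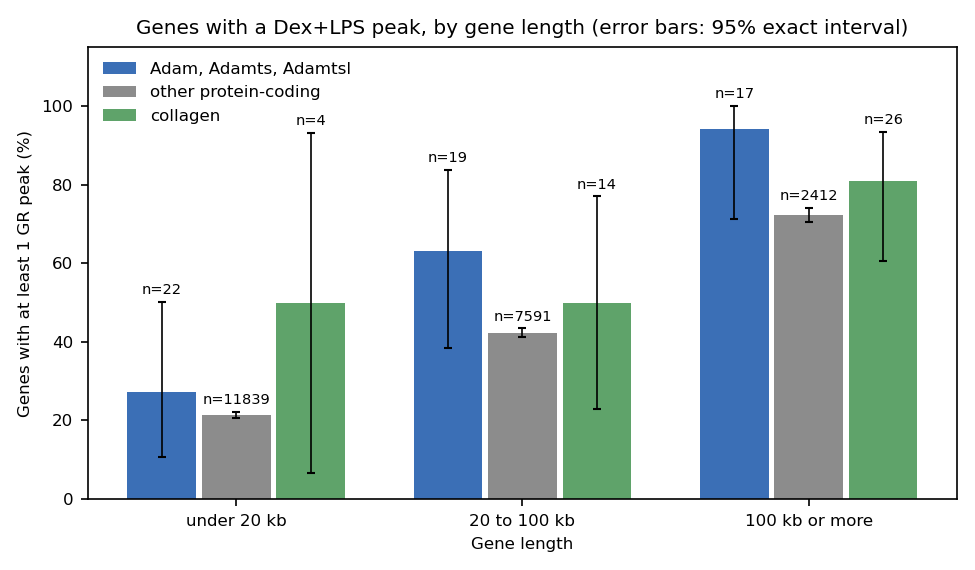
Bars give the percentage of genes with at least 1 Dex+LPS peak by gene length for the 58 genes, other protein-coding genes and collagen genes, with exact 95% intervals and the number of genes above. At 100 kb or more, 94.1% of the 17 genes were bound, against 72.2% of other protein-coding genes.

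**Figure D4:**
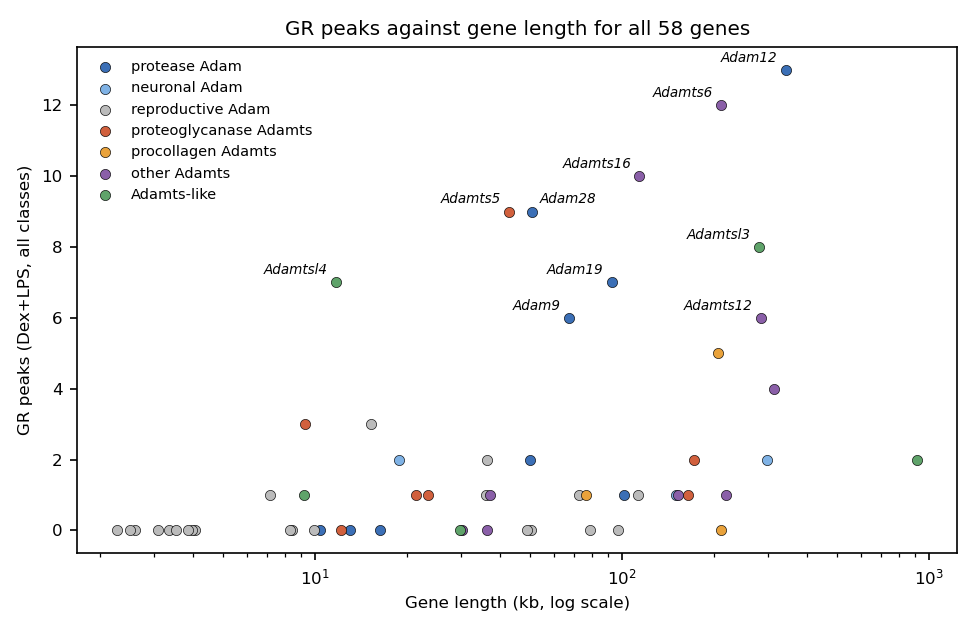
Each point is 1 of the 58 genes, at its length in kb (log axis) and its number of Dex+LPS peaks, coloured by role. Adamtsl4 has 7 peaks at 11.7 kb, while Adamtsl1, the longest at 915 kb, has 2.

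Beside the nearest relatives in function, the share of bound genes lay between theirs, but the intervals overlapped and the order differed by gene length. Of 23 matrix metalloproteinase (Mmp) genes, 12 (52.2%, 30.6 to 73.2%) had a peak, and of 44 collagen genes 30 (68.2%, 52.4 to 81.4%). Here it was 34 of 58 (58.6%, 44.9 to 71.4%). Under 20 kb the shares were 27.3% here, 53.3% for Mmp and 50.0% for collagen genes. From 20 to 100 kb they were 63.2%, 42.9% and 50.0%. At 100 kb or more they were 94.1% here and 80.8% for collagen genes, with 1 Mmp gene, which was bound. Mutant-specific peaks were at 1 Mmp gene (4.35%) and at 10 collagen genes (22.7%), against 3 here (5.17%). Median lengths were 12.7 kb and 114 kb for Mmp and collagen genes. Shared peaks made up 19.0% of the wild-type peaks at Mmp genes (5.45 to 41.9%) and 17.6% at collagen genes (12.0 to 24.4%), and both intervals hold the 14.4% found here.

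Genes that act with these proteases were counted in the same way, against 34.4% of protein-coding genes with any peak, 9.37% with a shared and 5.36% with a mutant-specific one. The lists were chosen with earlier results of these data known, so their shares and intervals are descriptions and not tests. Of 5 inhibitor genes, 3 had peaks (60%, interval 14.7 to 94.7%), which were Timp1, Timp2 and Timp3, each with 1 shared peak and with 2, 4 and 3 wild-type-specific ones, and Timp1 alone had a mutant-specific peak. Timp3 encodes the matrix-bound inhibitor of ADAM and ADAMTS proteases, while Timp4 and the membrane inhibitor gene Reck had none. Of 12 partners and activators of ADAM10 and ADAM17, 6 were bound (50.0%, 21.1 to 78.9%). For both lists the interval holds the share of all protein-coding genes. Rhbdf2, the gene of iRhom2, which brings ADAM17 to the cell surface, had 1 shared peak, and Furin, whose product activates the proteases, had 3 wild-type-specific and 1 shared. Frmd8, an iRhom partner, had 1 wild-type-specific and 3 mutant-specific peaks. Of 17 genes of shed membrane proteins, 16 were bound (94.1%, 71.3 to 99.9%), 7 of them with shared (41.2%) and 4 with mutant-specific peaks (23.5%). Cd44 had the most peaks, with 18 wild-type-specific, 4 shared and 5 mutant-specific ones. Vcam1 had 3, 4 and 8 in that order, more specific to the mutant than to wild type, while Notch1 had 2 wild-type-specific peaks and Btc none. Of 18 matrix substrates and partners, 14 were bound (77.8%, 52.4 to 93.6%), 8 of them with shared (44.4%) and 6 with mutant-specific peaks (33.3%). Fbn1, the gene of fibrillin-1, had 9, 5 and 3 in that order, whereas Vcan, the gene of versican, had 1, 0 and 2, and Acan had none. The genes of shed proteins and the matrix genes had median lengths of 35.1 and 71.1 kb, against 17.1 kb for protein-coding genes. The part of length in their shares was not tested.

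Under Dex alone no peak was assigned to any of the 58 genes in any library. Wild-type libraries 1 and 2 had 0 of 412 and 0 of 854 peaks at these genes, and mutant libraries 1 and 2 had 0 of 53 and 0 of 60. All 4 libraries thus had the same value, so these counts hold no test of genotype, and an exact permutation test of 2 against 2 libraries could not have gone below p = 0.33. A count of 0 allows up to 5.17% of the 58 genes to be bound. In the same libraries a peak was assigned to 1.09%, 1.86%, 0.142% and 0.183% of protein-coding genes, all below that limit, so the absence was not distinguishable from these low rates. None of the 128 Dex+LPS peaks overlapped a Dex peak. Of all 24673 Dex+LPS peaks 1.17% did, so 0 of 128 is near the general rate. The closest was a peak of wild-type library 2 assigned to Stc1 (chr14:68853253-68853542), 12.0 kb from the outermost upstream peak of Adam28. The next was 199 kb from a peak assigned to Adam7.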

How the data were processed

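GR ChIP-seq was done on 13 libraries of mouse embryonic fibroblasts. MACS2 2.1.0, Picard 1.119, BWA 0.7.13 and build mm10 are listed in the submitters' processing notes, without their roles. The authors deposited peak positions in base pairs, with the gene and the distance to its start, and no score, height or depth. The Dex+LPS peaks are 200 bp wide and come as 3 lists merged over libraries, the Dex peaks as 1 list per library with a false discovery rate of 0.05 in the file name. Nothing states that the libraries of a group came from separate cultures.

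Peaks were counted per gene and class as assigned by the authors. Lengths and spans are from the RefSeq gene table (GRCm38.p6), whose gene IDs matched 99.9% of the Dex+LPS peaks. Runs join peaks of a gene lying up to 10 kb apart, and overlaps need at least 1 bp. Intervals are exact Clopper-Pearson 95% intervals, and a count of 0 allows up to 3 counts of the total. Since no library of the Dex+LPS groups has its own list, a test between genotypes was planned only for Dex, an exact permutation test of log2(peaks + 1), and was void because every library had 0 peaks. Genes were described in full if they had a mutant-specific peak, a peak within 1 kb of the start or 4 or more peaks. The members and gene lists were chosen with earlier results of these data known, and the roles were assigned after the counts were seen. Python 3.11.15, numpy 2.4.6, pandas 2.3.3, scipy 1.17.1, matplotlib 3.10.9 and bedtools 2.31.1 were used, and the counting was tested on simulated data. Alternatives were other assignments of peaks to genes, a distance limit, a looser rule for shared peaks, omission of chromosomes 10 to 14, and each family alone.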

Additional observations from a re-analysis of the deposited data

How the results depend on the processing

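Assignment and choice of genes moved several values. Counting only peaks in the gene body or 5 kb upstream left 72 wild-type-specific peaks, 8 shared peaks at 13.8% of the genes and 1 mutant-specific peak. Assignment to the nearest start left 77 wild-type-specific peaks at 37.9% of the genes and also 1 mutant-specific peak. The share over all protein-coding genes was not counted under the other assignments, so how far the excess depends on assignment is unknown. By gene body and by nearest start, 1.72% of the genes had a mutant-specific peak, against 5.17% as deposited. Counting peaks within 1000 bp as shared left 2 mutant-specific peaks (3.45%). Within 100 kb of the start there were 60 wild-type-specific peaks, at 41.4% of the genes, and 11 shared peaks. Without chromosomes 10 to 14 there were 65 wild-type-specific and 0 mutant-specific peaks (0% of the genes). The Adam family alone had 39 wild-type-specific peaks at 32.4% of its genes and 11 shared peaks, 22% of its wild-type peaks. The Adamts family alone had 52 wild-type-specific peaks at 68.4% of its genes, 5 shared peaks and 1 mutant-specific peak. The Adamtsl family alone had 16 wild-type-specific peaks at 80% of its genes, 2 shared peaks at 40%, and 0 mutant-specific peaks (0%). Without the reproductive tract Adam genes, an alternative chosen after seeing the data, wild-type-specific peaks were at 69.4%. The 1000 bp rule changed the class of a peak, and the other alternatives counted fewer peaks or fewer genes. Why each value moved was not tested. The share of wild-type peaks that were shared lay between 8.77 and 22% in all alternatives run. For Dex every library had 0 peaks at these genes, so the log2 difference is 0 by construction with each library left out and with the replicate block, and this says nothing about stability. A stricter peak threshold could not be tried without scores, and the unknown depth limits every statement about a missing peak.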
